A study of Mus musculus with 16 samples.

Results

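The genes Runx1, Tal1, Lmo2, Gfi1b and Mecom encode transcription factors of the blood stem cell, and their loci were followed through 3 histone methylations in stem cells of young and old mice. The data are chromatin immunoprecipitation sequencing (ChIP-seq) peak lists from hematopoietic stem cells of C57BL/6 mice, taken from bone marrow. Their gate, SP-KSL-CD150+, joins dye efflux (side population) with the surface profile of immature blood cells. The mice were 4 months old (young) or 24 months old (old), the study's design text calls them wild type, and no treatment is named in the labels. H3K4me3 was profiled in 2 young and 2 old libraries, H3K27me3 in 3 young and 3 old, and H3K36me3 in 3 young and 3 old. In the labels each library has a biological replicate number and is described as technical. They do not say how animals were pooled, so p-values measure only the spread between these libraries, which may be technical. H3K27me3 libraries bear replicate numbers 1 to 3, H3K36me3 libraries 4 to 6 and H3K4me3 libraries 7 and 8. Sample titles carry a further number from 16 to 21 that the labels do not explain, and values within a shared title number are given where they bear on a result.

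Every peak or island that touched 1 of 5 windows of the mouse build mm9 was taken as a member. The windows were chr16:92590000-92840000 for Runx1 (250 kb), chr4:114715000-114755000 for Tal1 (40 kb), chr2:103785000-103835000 for Lmo2 (50 kb), chr2:28450000-28490000 for Gfi1b (40 kb) and chr3:29840000-30420000 for Mecom (580 kb). This gave 461 members of the 610361 peaks and islands in the 16 lists, of which 61 were H3K4me3 peaks, 5 were H3K27me3 islands and 395 were H3K36me3 peaks. No gene annotation of mm9 was used here, so exons, introns and start sites were not placed on these positions. In the order of genes in RefSeq's annotation of GRCm38.p6, Runx1 lies between Clic6 and Setd4, Tal1 between Stil and Pdzk1ip1, Lmo2 between Caprin1 and 4931422A03Rik, Gfi1b between Gtf3c5 and Tsc1, and Mecom between Egfem1 and Actrt3. The lists hold positions without gene names, so markers of the sorted cell type were not scored.

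RUNX1 binds DNA with its partner CBFB and is required for the emergence of blood stem cells. TAL1, a basic helix-loop-helix factor, and LMO2, a LIM-domain protein that bridges DNA-bound partners without binding DNA itself, act in a shared complex with GATA factors. GFI1B is a zinc-finger repressor that acts in stem cells and in the erythroid and megakaryocytic lineages. Mecom encodes the zinc-finger factor EVI1 and a longer form with a PR domain that supports stem cell maintenance. H3K4me3 marks active and poised promoters, H3K27me3 is deposited by Polycomb at silenced genes, and H3K36me3 is laid down over transcribed gene bodies behind elongating polymerase. Long H3K4me3 domains are known from genes that define a cell type.

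Runx1 and Mecom are transcribed from a distal and a proximal promoter, and the start regions are shown here because the H3K4me3 regions of both genes had a spacing close to that of the starts. Each sequence is the 250 bases before a RefSeq start on GRCm38.p6, read 5′ to 3′ on the gene's strand (minus for these genes), with CpG dinucleotides in capitals. The Runx1 distal stretch is chr16:92826075-92826324 and the proximal one chr16:92697330-92697579. The Mecom distal stretch is chr3:30509760-30510009 and the proximal one chr3:30013205-30013454. Gfi1b, with its single stretch at chr2:28621983-28622232, is shown as a gene with a single H3K4me3 region, of 2767 bp. These positions belong to another build than the peaks and were not converted.
Runx1 distal: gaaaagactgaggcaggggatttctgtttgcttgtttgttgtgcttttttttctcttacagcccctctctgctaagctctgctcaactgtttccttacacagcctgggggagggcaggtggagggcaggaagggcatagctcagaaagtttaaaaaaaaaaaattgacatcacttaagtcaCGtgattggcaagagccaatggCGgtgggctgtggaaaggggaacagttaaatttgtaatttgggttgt
Runx1 proximal: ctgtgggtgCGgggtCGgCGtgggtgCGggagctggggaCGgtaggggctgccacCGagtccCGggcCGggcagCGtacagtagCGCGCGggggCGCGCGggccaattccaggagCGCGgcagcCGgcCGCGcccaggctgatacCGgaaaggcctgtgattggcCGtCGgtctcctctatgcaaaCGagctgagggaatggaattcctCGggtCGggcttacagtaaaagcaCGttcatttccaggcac
Mecom distal: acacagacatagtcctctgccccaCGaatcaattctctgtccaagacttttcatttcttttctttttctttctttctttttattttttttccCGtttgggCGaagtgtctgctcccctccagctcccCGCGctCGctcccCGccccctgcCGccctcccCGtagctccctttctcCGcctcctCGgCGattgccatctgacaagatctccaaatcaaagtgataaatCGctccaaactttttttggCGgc
Mecom proximal: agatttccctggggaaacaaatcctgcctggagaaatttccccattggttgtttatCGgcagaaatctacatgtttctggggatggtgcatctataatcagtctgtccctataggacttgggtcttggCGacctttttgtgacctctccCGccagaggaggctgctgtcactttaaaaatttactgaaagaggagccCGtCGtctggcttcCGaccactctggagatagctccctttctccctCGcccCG
Gfi1b: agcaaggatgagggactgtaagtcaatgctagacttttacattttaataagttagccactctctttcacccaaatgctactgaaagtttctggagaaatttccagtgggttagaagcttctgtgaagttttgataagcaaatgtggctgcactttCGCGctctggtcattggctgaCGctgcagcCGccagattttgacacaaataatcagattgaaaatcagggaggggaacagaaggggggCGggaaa

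The distal and proximal Runx1 stretches differ in base composition. The distal stretch holds 2 CpG and has a GC content of 45.6%, and 18.8% of all 32851 RefSeq promoter stretches of this length have fewer CpG. The proximal stretch holds 27 CpG at 67.6% GC, and 91.4% of promoters have fewer. For Mecom the distal stretch holds 14 CpG and the proximal one 8, Gfi1b holds 5, and the median over all promoters is 6. Tal1 has start regions only 1.4 kb apart in RefSeq, with 6 CpG in the distal and 16 in the proximal stretch.

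4 motifs were searched on both strands. GATAA, the core of GATA factor sites, is found in the Gfi1b stretch, in both Mecom stretches and in the distal Tal1 stretch, and in 22.6% of all promoters. CANNTG, the E-box that TAL1 and its partners bind, occurs 3 times in the distal Runx1 stretch, 2 times in Gfi1b and 1 time in the distal Mecom stretch, and in 66.2% of all promoters. GGAAG, an ETS core, is found in the distal Runx1, proximal Mecom and proximal Tal1 stretches and in 64.1% of promoters. TGTGGT, a RUNX core, is in none of the 7 stretches searched and in 14.0% of promoters. CANNTG and the other motifs can overlap, and a match is a description of letters, not of binding.

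The H3K4me3 lists held 16258 to 19923 peaks over 26.9 to 32.5 Mb, the H3K27me3 lists 17752 to 47197 islands over 123 to 179 Mb, and the H3K36me3 lists 6399 to 84437 peaks over 5.90 to 138 Mb. Read depth is not given in the sources used here, so counting error could not be bounded. Young H3K36me3 replicate 4 stood apart with 6399 peaks over 5.90 Mb, against 41.5 to 138 Mb in the other 5 lists. Young H3K27me3 replicate 1 reached a highest score of 19032, against 9019 to 10048 in the other 5. Differences in the windows and named regions that rest on either library are given with and without it. In sorted bulk cells, a mark carried by fewer cells and less of the mark in each cell cannot be told apart.

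H3K4me3 was present in all 5 windows in all 4 libraries. The length under H3K4me3 peaks was larger on average in old cells in each window, by 0.04 to 0.21 on the log2 scale, and no window passed a test. The measure was log2 of covered bases plus 200, compared with an exact two-sided permutation test, whose smallest possible p is 0.333 for 2 against 2 libraries. Over all covered tiles of the matching lengths the median difference was 0.02 to 0.07, also higher in old cells. With equal numbers of peaks per list, the differences were 0.04 in Runx1, 0.13 in Tal1, 0.06 in Lmo2, 0.04 in Gfi1b and 1e-04 in Mecom. In Tal1 every old library lay above every young one. Of all 40-kb tiles of the genome covered in at least 2 libraries, 17.3% had every old library above every young one and 13% had every old library below. The same shares were 17.5% and 12.8% for 50-kb tiles, 18.7% and 8.24% for 250-kb tiles and 17.7% and 5.59% for 580-kb tiles, so 1 of 5 windows is near this background.

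Runx1 had 6114 and 5213 bp under H3K4me3 peaks in the young libraries (replicates 7 and 8, in this order throughout). The old libraries had 6328 and 6004 bp (replicates 7 and 8). The ages overlapped, with means of 5663.5 ± 637 bp (SD, n = 2) and 6166 ± 229 bp (SD, n = 2). The difference was 0.12 on the log2 scale (exact permutation p = 0.667). When only peaks at or above the median score of their list were kept, it turned to -0.50, as the peak at the downstream region was below that median in both old lists. The median was 3100 in both young lists and in old replicate 7, and 2640.43 in old replicate 8. Peaks at 3100 or above made up 58.9 and 59.7% of the young lists and 51.2% of old replicate 7. The cut thus kept unequal shares of the lists, and the young downstream peaks, at 3100, were kept as ties with the median.

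Tal1 had 9096 and 7457 bp in the young libraries and 9242 and 9928 bp in the old ones. The means were 8276.5 ± 1159 bp (SD, n = 2) and 9585 ± 485 bp (SD, n = 2), a difference of 0.21 on the log2 scale (exact permutation p = 0.333, the smallest the design allows). The lowest old library exceeded the highest young one by a margin smaller than the gap between the young libraries. Within title number 18, which is borne by young and old replicate 7, the difference was 0.02.

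Lmo2 had 7747 and 6590 bp in the young libraries and 7509 and 8365 bp in the old ones, and the ages overlapped. The difference was 0.15 on the log2 scale (exact permutation p = 0.667), and within title number 18 it was -0.04. Gfi1b had the shortest coverage, 2073 and 2028 bp in the young libraries and 2311 and 1936 bp in the old ones. The old values lay on both sides of the young ones, with a difference of 0.04 (exact permutation p = 1.0). It was -0.03 when covered length was expressed per Mb of each list.

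Mecom had 14460 and 12757 bp in the young libraries and 13588 and 16690 bp in the old ones. The lowest old value lay between the young values, and the difference was 0.15 (exact permutation p = 0.667), or -0.09 within title number 18. The plot of covered length shows every library of the 3 marks.

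**Figure D1:**
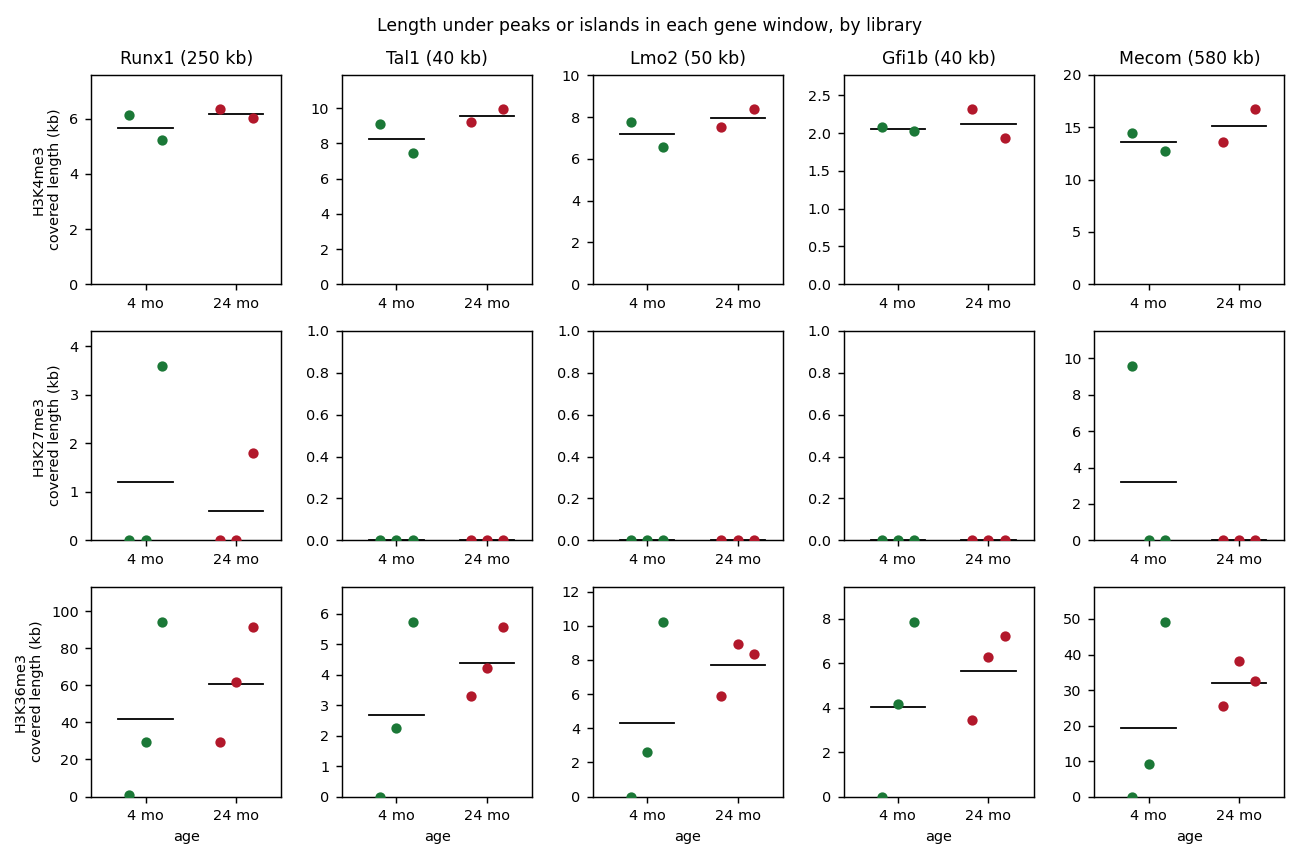
Length under peaks or islands (kb, y axis) in each gene window by age (x axis), 1 point per library and a line at the mean, with 1 row of panels per mark. H3K4me3 values of young and old libraries lie close together, H3K27me3 is 0 in every library in Tal1, Lmo2 and Gfi1b, and the lowest young H3K36me3 point of each gene is replicate 4.

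Set against their window sizes, the genes differed more than the ages did. H3K4me3 covered 18.6 to 24.8% of the Tal1 window and 13.2 to 16.7% of the Lmo2 window across the 4 libraries. It covered 4.84 to 5.78% of the Gfi1b window, 2.20 to 2.88% of the Mecom window and 2.09 to 2.53% of the Runx1 window. The windows were placed on these genes and differ in length, so each was ranked only among tiles of its own length. The mean over libraries was higher in Tal1 than in 99.9% of all 40-kb tiles and 99.5% of those covered, and higher in Lmo2 than in 99.6% of 50-kb tiles and 98.3% of those covered. Gfi1b exceeded 91.8% of all 40-kb tiles but 59.8% of the covered ones, so its coverage was ordinary for a tile with H3K4me3. Runx1 exceeded 70.3% of covered 250-kb tiles and Mecom 82.3% of covered 580-kb tiles.

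Touching or overlapping peaks of the 4 libraries were joined, which gave 20 H3K4me3 regions in the windows and 20660 in the genome. 8 of the 20 were held by all 4 libraries, and each of the 5 genes had at least 1 of these. The same 8 remained when a library had to cover at least 50% of a region. Genome-wide, 14489 regions were held by all 4 libraries, with a median length of 2023 bp.

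The Tal1 region at chr4:114728402-114737798 was 9397 bp long, longer than 99.9% of all H3K4me3 regions. It held 9096 and 7457 bp of peaks in the young libraries and 8804 and 9317 bp in the old ones, so the ages overlapped. In each library it was built from a pair of peaks, and the gap between them was widest in young replicate 8. Its length exceeded the 1.4 kb between the RefSeq starts of Tal1.

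The Lmo2 region at chr2:103808302-103816774 was 8473 bp long, also longer than 99.9% of all H3K4me3 regions. It was called as 1 unbroken peak of 8365 bp in old replicate 8 and as 5 peaks in old replicate 7. Each young library had 2 peaks there, so the number of pieces varied most between the old libraries.

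Runx1 had a pair of regions held by all libraries. The upstream one, at chr16:92822800-92826881, was 4082 bp long and longer than 96.5% of regions, with 3769 and 3454 bp in the young libraries and 3841 and 4047 bp in the old ones. Both old values were above both young ones, as in 12.6% of all regions held by the 4 libraries, while in 16.2% both old values were below. The downstream region, at chr16:92696639-92699155, was 2517 bp long, with 2345 and 1759 bp in the young libraries and 1774 and 1957 bp in the old ones. Here the ages overlapped, and the highest value was from young replicate 7. The authors' score was 3100 in both young lists for the downstream peak, and 3074.22 and 2203.95 in the old ones, while the upstream peak had 3100 in all 4. Ranked within their lists, the downstream scores went the other way. They exceeded those of 41.1 and 40.3% of peaks in young cells and 48.6 and 47.6% in old cells. Between 47.7 and 59.7% of the peaks in a list score 3100 or more, the unit of the score is not stated, and no test was made of it.

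The midpoints of the Runx1 peaks lay 127.0 to 127.2 kb apart on mm9 across the 4 libraries, and the RefSeq starts lie 128.7 kb apart on GRCm38.p6. By spacing and strand, the upstream, longer H3K4me3 region corresponds to the distal start, whose stretch holds 2 CpG, and the shorter one to the proximal start, whose stretch holds 27. No position was matched across the builds.

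Mecom had 3 regions held by all libraries. The longest, at chr3:30403658-30409754, was 6097 bp long (longer than 99.4% of regions), with 5380 and 4973 bp in the young libraries and 5350 and 5038 bp in the old ones. A further region of 2840 bp lay just upstream at chr3:30412126-30414965, with 2840 and 2296 bp in the young and 2469 and 2738 bp in the old libraries. The downstream region, at chr3:29907253-29913091, was 5839 bp long (longer than 99.2%), with 4847 and 5488 bp in the young and 4703 and 5652 bp in the old libraries. In each of the 3 regions the old values overlapped the young ones. Peak midpoints of the longest and the downstream region lay 496.7 to 497.6 kb apart on mm9, and the distal and proximal RefSeq starts of Mecom lie 496.6 kb apart on GRCm38.p6.

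Gfi1b had a single region, at chr2:28475247-28478013, 2767 bp long and longer than 85.3% of all H3K4me3 regions. It was the gene whose peak did not reach a score of 3100 in the young lists, at 1048.16 and 2321.13, while both old lists gave 3100 to their main peak. Within the lists these scores exceeded those of 24.7 and 35.2% of peaks in young cells and 48.8 and 52.3% in old cells. With every peak counted, covered length was 2050.5 ± 31.8 bp (SD, n = 2) in young and 2123.5 ± 265 bp (SD, n = 2) in old libraries. With only peaks at or above the median score of their list, the Gfi1b difference went from 0.04 to 3.30 on the log2 scale (exact permutation p = 0.333), as the young peaks were below that median.

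**Figure D2:**
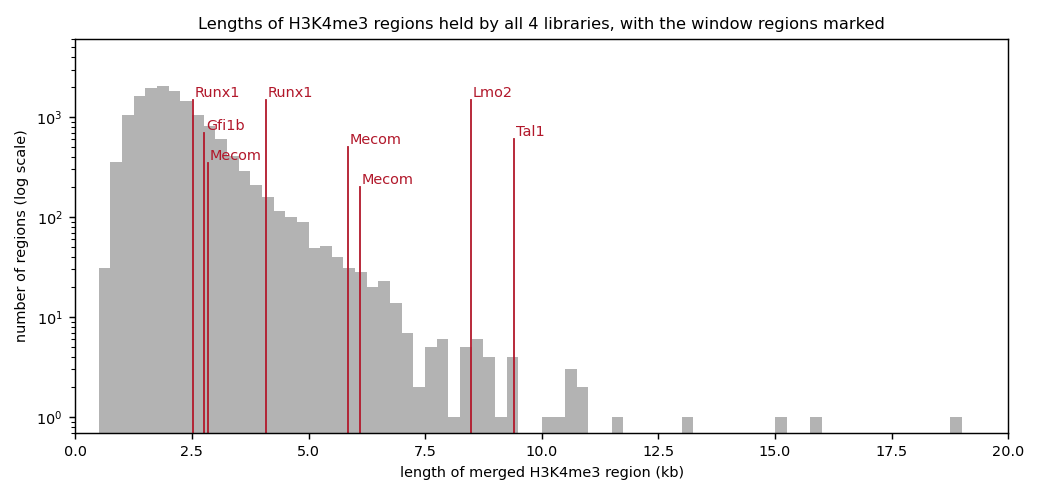
Length of merged H3K4me3 regions held by all 4 libraries (kb, x axis) against their number (y axis, log scale), with the 8 regions of the 5 genes as red lines. The Tal1 and Lmo2 regions lie in the far right of the distribution, past the Mecom pair of 5839 and 6097 bp, and the Gfi1b region of 2767 bp lies nearer its bulk.

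Of the 20 regions, 12 were not held by all libraries, and these were short. 10 were held by old libraries only and 2 by young libraries only. Over the genome, 18.2% of merged H3K4me3 regions were held by old libraries only and 2.08% by young libraries only. 7 of the 10 lay in the Mecom window, 2 in Runx1 and 1 in Tal1. The old lists also held more peaks, 18675 and 19923 against 16314 and 16258 in young, and the part of this in the short regions was not tested.

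Of the 12, 2 were held by both old libraries, and they are named here after their values were seen. The Tal1 one, at chr4:114720546-114721156, had 438 and 611 bp in the old libraries and 0 in the young ones. It lay upstream of the long Tal1 region. In that long region taken by itself the ages overlapped. The Mecom one, at chr3:29906437-29907033, had 463 and 534 bp in the old libraries and 0 in the young ones, and lay beside the downstream Mecom region.

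Covered length per region was tested across the genome with limma (adjusted p under 0.05 after Benjamini-Hochberg correction over all regions covered in at least 2 libraries). No H3K4me3 region passed (0%) among 17307 tested, and 1253 had an unadjusted p under 0.05 (7.24%). 10 regions of the windows were tested, 0 passed, and 2 had an unadjusted p under 0.05, those held by both old libraries alone. With 0 bp in the young libraries, these 2 met the filter of at least 2 libraries only through the old group. Their direction was thus set by the filter, and no conclusion is drawn from their size or p. The Tal1 one differed by 1.85 (SE 0.50, limma adjusted p = 0.352) and the Mecom one by 1.80 (SE 0.50, limma adjusted p = 0.357) on the log2(bp + 200) scale. The 8 regions held by all libraries differed by -0.11 to 0.15, with SE of 0.09 to 0.16 and limma adjusted p of 0.979 to 1.00. The median over the 10, which include the 2 held by old libraries alone, was 0.08, beside 0.01 over all regions tested.

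H3K27me3, the Polycomb mark, was nearly absent from these loci at both ages. No island of any of the 6 libraries touched the Tal1, Lmo2 or Gfi1b window. Among 40-kb tiles with H3K4me3 in all 4 libraries, 47.2% had no H3K27me3 island in any of the 6 libraries, and among 50-kb tiles 41.8%. Absence in these 3 windows is thus common for stretches that carry H3K4me3. The lists record called islands, so weaker H3K27me3 is not seen.

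The distance to the nearest island outside a window shows how far the free stretch ran. Around Tal1 it was 51.8 to 287.2 kb across the 6 libraries, and around Lmo2 25.6 to 130.6 kb. Around Gfi1b it was 90.8 to 1762 kb, with the longest from young replicate 1 and 90.8 to 270.6 kb in the other 5. The longest distance around Tal1 was from the same library, and the other 5 gave 51.8 to 112.8 kb.

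The Runx1 window held 1 H3K27me3 region, near its gene-end edge at chr16:92593801-92598600. It measured 3600 bp in young replicate 3, 1800 bp in old replicate 3 and 0 in the other 4 libraries. The ages overlapped, at -0.31 on the log2 scale (exact permutation p = 1.0, smallest possible 0.1). Both libraries that held it carry title number 20. Leaving out young replicate 3 turned the difference to 1.11 and leaving out old replicate 1 or 2 turned it to 0.24. Among 250-kb tiles with H3K4me3 in all 4 libraries, 24% had islands in at most 2 of 6 libraries.

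In the Mecom window, 9600 bp of H3K27me3 in 3 islands came from young replicate 1 alone, the library with the highest single score. These islands scored 47, 73 and 51, beside a median of 58 in that list. The longest island, of 4800 bp, was at chr3:29941601-29946400, between the distal and proximal H3K4me3 regions. Another, at chr3:29906801-29909600 and named after its values were seen, overlapped the downstream H3K4me3 region. The difference was -1.87 on the log2 scale (exact permutation p = 1.0) with this library and 0 without it, since the other 5 libraries had 0 bp. Among 580-kb tiles with H3K4me3 in all 4 libraries, 3.27% had islands in at most 1 of 6 libraries, so Mecom had islands in fewer libraries than most stretches of that length with H3K4me3.

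With limma, 0 of 30998 H3K27me3 regions passed (0%) and 1368 had an unadjusted p under 0.05 (4.41%). Of the window regions only the Runx1 one was covered in at least 2 libraries, with a difference of -0.31 (SE 1.73, limma adjusted p = 1).

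H3K36me3 was found at all 5 genes, in all 6 libraries at Runx1 and in 5 of 6 at each of the others. Mean covered length was larger in old cells in each window. In young and old cells it was 41554 and 60733 bp in Runx1, 2665 and 4368 bp in Tal1, and 4286 and 7703 bp in Lmo2. It was 4017 and 5648 bp in Gfi1b and 19413 and 32082 bp in Mecom. The means of the log2 values, which are the measure compared here, differed by 1.54 to 2.82. These differences are not log2 ratios of the mean lengths. In each window the ages overlapped. Over all covered tiles of the matching lengths the median difference was 1.39 to 1.74. Young replicate 4 had 0 bp in Tal1, Lmo2, Gfi1b and Mecom and 867 bp in Runx1. Without it the differences were 0.05 in Runx1, 0.23 in Tal1, 0.52 in Lmo2, -0.09 in Gfi1b and 0.58 in Mecom. The medians over tiles without it were 0.15 at 40 kb, 0.16 at 50 kb, 0.23 at 250 kb and 0.26 at 580 kb, and 60.2 to 76.9% of tiles were then higher in old cells.

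Runx1 had the most H3K36me3, with young values of 867, 29575 and 94219 bp (replicates 4 to 6). The old values were 29294, 61669 and 91235 bp (replicates 4 to 6). The young libraries held both the lowest and the highest value. The difference was 1.93 (exact permutation p = 0.7, smallest possible 0.1). Its mean over the 6 libraries exceeded 99.1% of all 250-kb tiles and 98.1% of the covered ones. Mecom had 0, 9024 and 49216 bp in the young libraries and 25566, 38062 and 32619 bp in the old ones, with a difference of 2.82 (exact permutation p = 0.4). It exceeded 59.2% of covered 580-kb tiles.

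Tal1 had 0, 2257 and 5737 bp in the young libraries and 3316, 4214 and 5574 bp in the old ones, a difference of 1.65 (exact permutation p = 0.4). Lmo2 had 0, 2626 and 10231 bp in the young libraries and 5859, 8903 and 8348 bp in the old ones, a difference of 2.11 (exact permutation p = 0.4). Gfi1b had 0, 4182 and 7869 bp in the young libraries and 3431, 6272 and 7240 bp in the old ones, a difference of 1.54 (exact permutation p = 0.7). In each of these genes young replicate 6 had the highest value of all 6 libraries. The share of covered tiles in which the ages did not overlap in either direction was 2.2% at 40 kb, 2.24% at 50 kb, 1.45% at 250 kb and 1.02% at 580 kb, and 0 of the 5 windows did so.

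List sizes differed along with the values in the windows. Young replicate 6, the highest in 5 of 5 windows, had the largest list (138 Mb), and young replicate 4 the smallest. Within title number 18, old replicate 6 exceeded young replicate 5 by 1.62 in Runx1, 1.23 in Tal1, 1.60 in Lmo2, 0.76 in Gfi1b and 1.83 in Mecom, where the lists covered 100 and 41.5 Mb. Within title number 16, old replicate 4 exceeded young replicate 4 in each window, with lists of 68.5 and 5.90 Mb. The part of list size in these differences was not tested window by window.

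Expressed per Mb of list, Lmo2 was the gene in which the ages separated. It had 0, 63.2 and 74.3 bp per Mb in the young libraries and 85.5, 89.0 and 83.1 in the old ones (exact permutation p = 0.1, the smallest possible). This scale was chosen after the data were seen, and 8.09% of covered 50-kb tiles had every old library above every young one on it. The other 4 genes overlapped on that scale, where the tile shares were 7.96% at 40 kb, 8.8% at 250 kb and 8.44% at 580 kb.

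How the mark was divided into peaks varied between libraries. In Runx1, young replicate 5 had 59 peaks with a median width of 352 bp, and old replicate 6 had 51 with a median of 1363 bp, over like spans of 215639 and 218838 bp. Closing gaps of up to 1000 bp, also chosen after the data were seen, raised young replicate 5 from 29575 to 40113 bp and old replicate 6 from 91235 to 99789 bp. The order of the 6 libraries in Runx1 was the same after this.

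Merging gave 41 H3K36me3 regions in Runx1, 41 in Mecom, 2 in Lmo2 and 1 each in Tal1 and Gfi1b. 12 of the 41 in Runx1 and 10 of the 41 in Mecom were held by at least 5 libraries, as were those in Tal1, Lmo2 and Gfi1b. The region with the largest mean coverage in Runx1 was chr16:92629076-92645313 (16238 bp), in Tal1 chr4:114737186-114743586 (6401 bp), in Lmo2 chr2:103814633-103821973 (7341 bp), in Gfi1b chr2:28463440-28471875 (8436 bp) and in Mecom chr3:29880793-29886734 (5942 bp). With limma, 0 of 45189 regions passed (0%), and 257 had an unadjusted p under 0.05 (0.569%). Of 60 window regions tested, 0 passed and 0 had an unadjusted p under 0.05. These 5 regions differed by 1.15 to 1.95, with SE of 1.48 to 1.52 and limma adjusted p of 0.911 to 0.937. Without young replicate 4 they differed by -0.65 in Runx1, 0.23 in Tal1, 0.37 in Lmo2, -0.09 in Gfi1b and 0.72 in Mecom, each with a limma adjusted p of 1. 50 of the 60 were higher in old cells, beside 74.9% of all regions, and the median was 1.10, beside 0.81 over all. Without young replicate 4, 36 of 60 were higher in old cells, beside 52.9% of all regions, and the median was 0.23, beside 0.06 over all. Some of the 60 were held by old libraries only, such as chr3:29938615-29940569, and chr16:92820123-92820997 by young libraries only. Such regions met the filter of at least 2 libraries through 1 age, so their direction was set by the filter. No conclusion is drawn from these counts and medians, which include them.

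The order of the marks along the gene could be read in 4 of 5 genes and was the same in these. Counting bases covered in at least 50% of a mark's libraries, all H3K36me3 of Runx1, Tal1, Gfi1b and Mecom lay downstream of the longest H3K4me3 region, along the RefSeq strand. None of it overlapped an H3K4me3 base in these 4 genes. Upstream of that region the windows extend only 13.1 kb in Runx1 and 10.2 kb in Mecom, so window placement left little room there. From the edge of the longest H3K4me3 region, H3K36me3 of Gfi1b began 3372 to 7485 bp away in the 5 libraries that held it. In Tal1 it began within 872 bp in the same 5 libraries, and in old replicate 6 it covered 4.16% of the H3K4me3 bases.

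Lmo2 differed from these genes in overlap, and its order along the gene was not scored, as the promoter entries gave no strand for it. Outside its H3K4me3 region, H3K36me3 lay on 1 side, with 4249 bp at higher coordinates and 0 bp at lower ones. In the Lmo2 window 3139 of 8365 H3K4me3 bases, or 37.5%, also lay under H3K36me3, against 0.801% of all H3K4me3 bases in the genome. By library, from replicate 4 to 6, the overlap was 0, 7.84 and 67.9% in young cells and 26.0, 50.9 and 43.9% in old cells. It was thus present in 5 of 6 libraries and highest in a young one, and the ages overlapped. The marks were measured in separate libraries, so whether they lie on the same molecules was not tested.

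**Figure D3:**
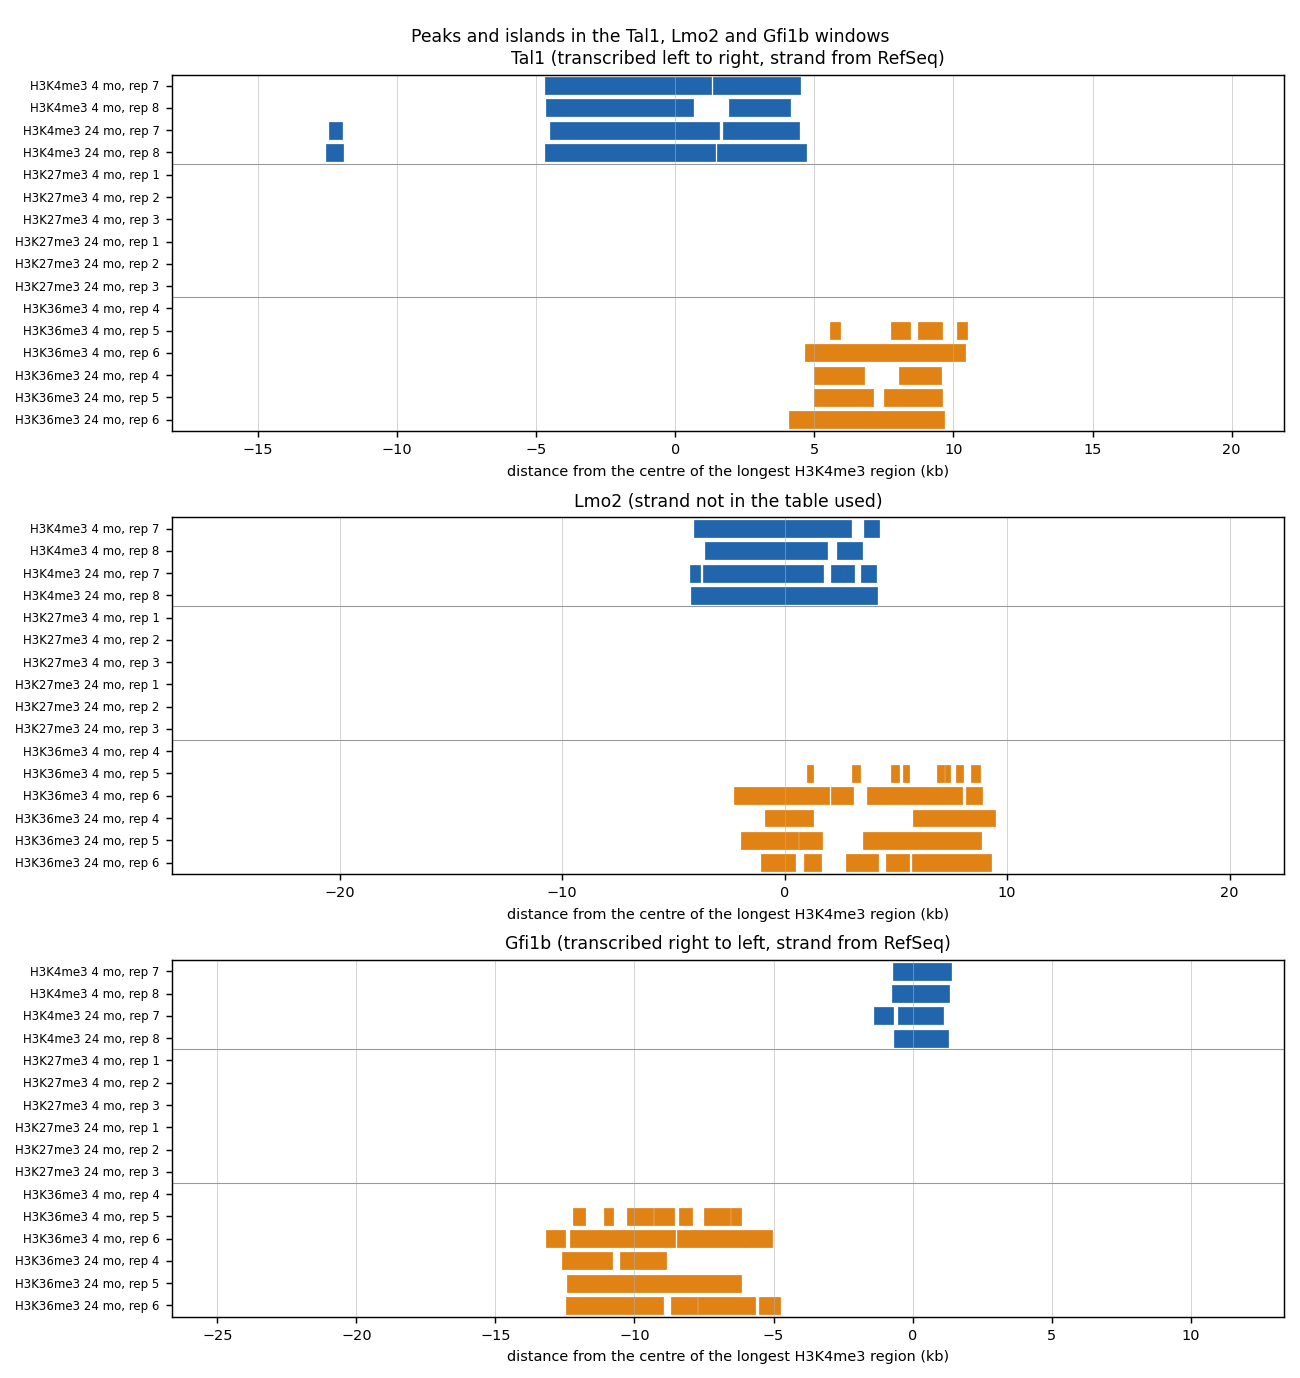
Peaks and islands in the Tal1, Lmo2 and Gfi1b windows, 1 line per library, against distance from the centre of the longest H3K4me3 region (kb, x axis), with H3K4me3 in blue, H3K27me3 in purple and H3K36me3 in orange. The H3K27me3 lines are empty, and H3K36me3 follows on 1 side of the H3K4me3 region in Tal1 and Gfi1b and runs into it in Lmo2.

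The long genes Runx1 and Mecom were divided at their longest upstream and downstream H3K4me3 regions, a division chosen after the values were seen. In Runx1, H3K36me3 covered 19.5 to 66.3% of the 106.6 kb on the gene-end side of the downstream region, in the 5 libraries other than young replicate 4. It covered 3.18 to 20.2% of the 123.6 kb between the regions. The gene-end side was covered more densely in 5 of 5 libraries, by 2.82 to 7.56 times.

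Mecom showed the same order with a steeper step. H3K36me3 covered 7.83 to 43.3% of the 67.3 kb on the gene-end side and 0.766 to 4.09% of the 490.6 kb between the regions. The ratio was 7.89 to 17.4 in the same 5 libraries. Outside the upstream region, no H3K36me3 peak was present in any of the 6 libraries, over 13.1 kb in Runx1 and 10.2 kb in Mecom.

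The smallest ratio in Runx1 and in Mecom was that of old replicate 4. The largest was that of young replicate 5 in Runx1 and of old replicate 6 in Mecom, so the step did not separate the ages. Between the regions, H3K36me3 was scattered, with 24 merged regions in Runx1, of which 5 were held by at least 5 libraries and 9 by 1 library. In Mecom there were 25, of which 4 were held by at least 5 libraries and 11 by 1.

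**Figure D4:**
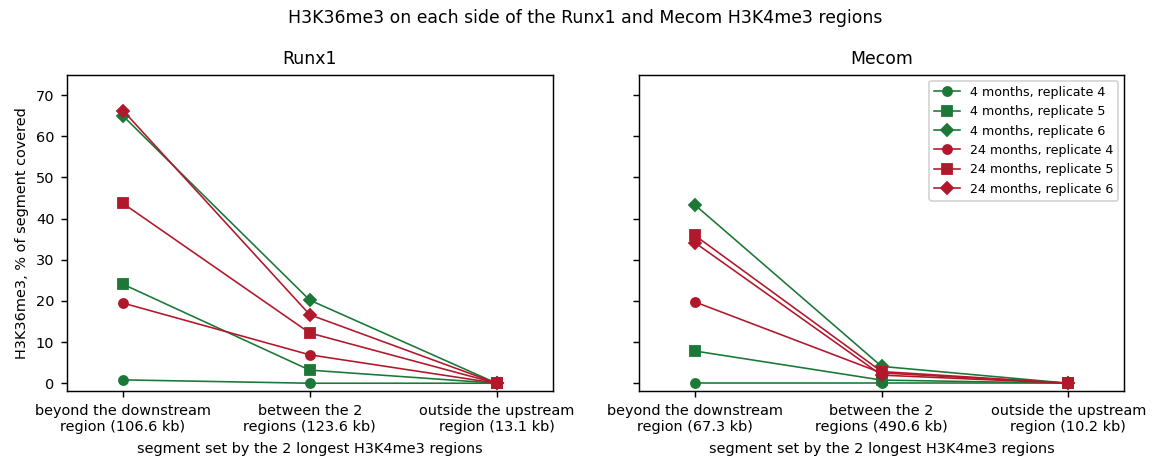
Share of each segment under H3K36me3 peaks (%, y axis) for the segments set by the upstream and downstream H3K4me3 regions of Runx1 and Mecom (x axis), 1 line per library. Lines fall from 19.5 to 66.3% on the gene-end side to 3.18 to 20.2% between the regions in Runx1 and from 7.83 to 43.3% to 0.766 to 4.09% in Mecom, leaving out young replicate 4 near 0.

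**Figure D5:**
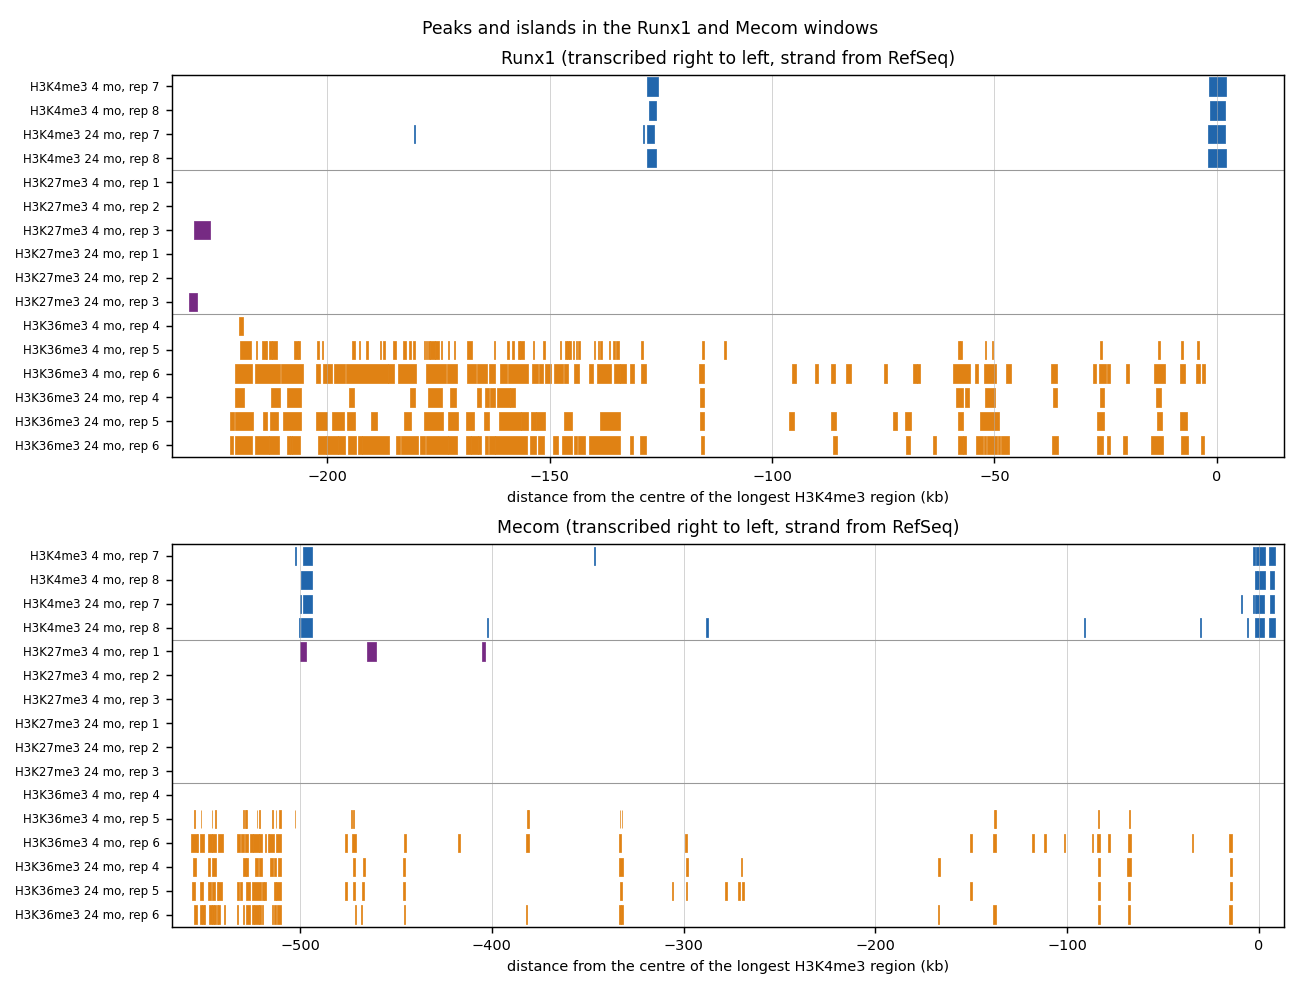
Peaks and islands in the Runx1 and Mecom windows, 1 line per library, against distance from the centre of the longest H3K4me3 region (kb, x axis), coloured by mark as in the map of the short windows. Both genes show separated H3K4me3 regions at a constant spacing in all 4 libraries, with dense H3K36me3 beyond the downstream one and scattered peaks between them.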

How the data were processed

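Peak lists from 16 ChIP-seq libraries (H3K4me3, H3K27me3, H3K36me3) were analysed, 1 list per library. Per the labels, sonicated chromatin was precipitated with antibody (Millipore for H3K4me3 and H3K27me3, Abcam for H3K36me3), followed by ThruPLEX library preparation. Positions are on mm9, and the tools were CASAVA 1.4, MACS and SICER, per the submitters' processing notes. For MACS and SICER the version, thresholds and control are, like read depth and aligner, not given in the sources used here. H3K27me3 bounds lie on a grid of 200 bp. The score of each peak, as deposited by the authors, has no stated unit and was used within a list, with raw values given for a few peaks. The sources do not say whether positions start at 0 or 1, so bounds may be off by 1 bp. Peak size and number depend on depth and enrichment as well as on the mark.

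Covered bases per window and library were computed with Python 3.11.15, numpy 2.4.6 and pandas 2.3.3, and compared as log2(bp + 200) with exact two-sided permutation tests (15 comparisons). Merged regions covered in at least 2 libraries were tested genome-wide with limma 3.58.1 in R 4.3.3 (trend, threshold 0.05), a step tested on simulated data. Background tiles of equal length covered all chromosomes. In each window the merged region with the largest mean coverage is named per mark, and for H3K4me3 every region held by all 4 libraries. Alternatives covered score cuts, equal peak numbers, window bounds, pseudocounts, filters, centring, a replicate block and left-out libraries. Gap closing, scaling to list length and background values without young H3K36me3 replicate 4 were added after the data were seen. The genes, windows and lists were chosen with earlier results of these data known. Promoter sequences, strand and gene order are from RefSeq (GRCm38.p6). Promoter entries matched 4 of the 5 genes (not Lmo2). Other blood stem cell factors were not analysed here.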

Additional observations from a re-analysis of the deposited data

How the results depend on the processing

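Under alternatives, 210 values of the 15 window comparisons kept their direction or stayed at 0, though not always their size, 11 changed direction and 4 moved to 0. Part of the 210 was fixed in advance. The H3K27me3 values of Tal1, Lmo2 and Gfi1b had to stay at 0, as no island touched these windows, and the replicate block could not change a difference. No exact test could pass 0.05. For H3K4me3, the Runx1 difference was -0.50 with peaks at or above the median score, since the downstream peak dropped out of both old lists, and the Gfi1b one 3.30, since the young peaks dropped out. Many peaks tie at this median in the young lists and in old replicate 7, so the score cut kept unequal shares of the H3K4me3 lists. With equal numbers of peaks per list, Mecom was 1e-04. Within title number 18 it was -0.044 in Lmo2 and -0.089 in Mecom. Gfi1b was -0.029 per Mb of list and -0.075 to 0.16 with libraries left out in turn. For H3K27me3, leaving out libraries gave -1.42 to 1.11 in Runx1 and -2.81 to 0 in Mecom, and Runx1 within title number 18 and Mecom within 18 and 20 were 0. For H3K36me3 with equal numbers of peaks per list, Tal1 was -0.013 and Lmo2 -0.22. Gfi1b was -0.089 to 2.58 with libraries left out, and the lowest value of all 5 windows came without young replicate 4 (Runx1 0.05 to 3.29, Tal1 0.23 to 2.67, Lmo2 0.52 to 3.37, Mecom 0.58 to 4.55). Where not stated, the cause was not tested.

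Genome-wide, limma called 0 regions per mark, and 16 to 94 H3K4me3 regions when 1 library was left out: 60 without young replicate 7, 16 without young replicate 8, 94 without old replicate 7 and 16 without old replicate 8. For H3K27me3 it called 0 to 2766, the latter without old replicate 2, and for H3K36me3 0. A lone library left in an age was assumed to vary like the others. For named regions, 133 values kept their direction and 16 changed it. With peaks at or above the median score, the downstream Runx1 H3K4me3 region gave -3.48 and the Gfi1b one 3.30 (limma adjusted p = 0.0651 for both). With libraries left out these were -0.30 to 0.075 for the downstream Runx1 H3K4me3 region, -0.0061 to 0.27 for Tal1, -0.075 to 0.16 for Gfi1b, and -0.13 to 0.13, -0.050 to 0.060 and -0.12 to 0.17 for the downstream, longest and far upstream Mecom regions. The downstream Mecom region also gave 1.9e-05 with a pseudocount of 1000 bp and 0.015 with centred libraries. The H3K27me3 region of Runx1 gave -1.02 to 0.24, the H3K36me3 region of Runx1 -0.65 to 2.46 and -1.54 with the stricter score, and that of Gfi1b -0.089 to 2.58. Regions held by all libraries, at 50% of the region, numbered 8 for H3K4me3, 0 for H3K27me3 and 0 for H3K36me3, where 1 bp gave 1.

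Deviations of same-numbered young and old libraries correlated weakly, at 0.005 for H3K4me3, 0.1, 0.143 and 0.021 for H3K27me3, and 0.06, -0.031 and 0.033 for H3K36me3. Unlike-numbered pairs gave -0.147 to 0.049 for H3K27me3, where the highest values were thus same-numbered, and -0.063 to 0.043 for H3K36me3. Replicate numbers and title numbers do not always match. In H3K36me3, replicates 4 share title number 16 (0.06), and young replicate 5 and old replicate 6 share 18 (0.043), the highest values of that mark. In H3K27me3, pairs sharing 18 and 20 gave 0.143 and 0.021. The part of the title number was not tested. For H3K4me3 they gave -0.005, as 2 libraries per age allow only 1 number and its negative. With the replicate block, window differences were unchanged by construction (Tal1 H3K4me3 0.21, exact sign-flip p = 0.5) and limma called 0 regions per mark.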
